A study of Mus musculus with 20 samples.

Results

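The genes described here encode the proteins of the cytoplasmic ribosome in mouse. They were chosen by symbol alone: names of the form Rpl or Rps with a number and at most 1 closing letter a, l or x, plus Rplp0, Rplp1, Rplp2 and Rpsa. This rule took 81 of the 23329 symbols in the count table, 32 for the small subunit, 46 for the large subunit and 3 for its stalk. The 20 mRNA sequencing libraries come from C57BL/6 mice and fall into 6 groups. Microglia (MG) and bone marrow-derived macrophages (BMDM) were sorted from GEMM gliomas (3 tumours) and from GL261 gliomas (3 tumours), and both cell types of a tumour carry its number. The comparison groups are normal brain MG (3 libraries) and Ly6C-high blood monocytes (5 libraries). GEMM tumours were raised by injecting DF1 cells making RCAS-PDGFB-HA and RCAS-shP53 into the brain of Flt3:Cre Rosa26:mTmG mice at 6 weeks of age. In these mice Flt3-driven Cre turns the red reporter of blood-derived cells into a green one, so tumour MG were sorted as GFP- TdTomato+ and tumour BMDM as GFP+ TdTomato- cells, all CD45+ CD11b+ Ly6C- Ly6G-. GL261 is a mouse glioma line. The labels attach the same protocol to every library. They do not say how the GL261 tumours were made, how old their hosts were, or how normal MG and monocytes were gated.

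A ribosome has a small subunit that reads the mRNA and a large subunit that joins amino acids, and each ribosomal protein is needed in nearly equal amounts. Their mRNAs begin with a run of pyrimidines, the terminal oligopyrimidine (TOP) motif, through which the mTOR pathway adjusts their translation, and their promoters are active in all cells. In microglia and macrophages, as elsewhere, growth and division call for new ribosomes, so these mRNAs are usually described as following growth.

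Promoter sequence was matched for 61 of the 81 members in RefSeq (GRCm38.p6). The 4 promoters below belong to genes the results turn on and show the motif matches counted after them. Each line gives 70 bases before to 30 bases after the start of the gene, 5′ to 3′ on the gene's strand, with matches to 3 motifs in capitals: the core bound by ETS transcription factors (CCGGAAG), a short run of pyrimidines (CTTTCC) and the element bound by the TATA-binding protein (TATAAA). Rpl38 lies at chr11:114668510-114668609 (plus strand), Rps27l at chr9:66946016-66946115 (plus strand), Rpl11 at chr4:136053364-136053463 (minus strand) and Rplp0 at chr5:115559397-115559496 (plus strand).
Rpl38: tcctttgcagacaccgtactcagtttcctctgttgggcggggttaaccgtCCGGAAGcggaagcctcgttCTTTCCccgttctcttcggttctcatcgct
Rps27l: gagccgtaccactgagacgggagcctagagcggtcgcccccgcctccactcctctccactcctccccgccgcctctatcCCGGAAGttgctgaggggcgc
Rpl11: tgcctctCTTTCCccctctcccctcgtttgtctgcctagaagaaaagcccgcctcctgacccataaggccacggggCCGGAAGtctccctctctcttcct
Rplp0: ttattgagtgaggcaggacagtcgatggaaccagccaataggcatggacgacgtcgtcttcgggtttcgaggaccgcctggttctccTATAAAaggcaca
Over 300-base promoters (250 before to 50 after the start, both strands), CCGGAAG was found in 25 of the 61 members (41.0%) and in 9.1% of all 27025 promoters. CTTTCC was found in 28 members (45.9%) against 26.4% of all promoters. TATAAA was found in 6 members (9.8%) against 14.2%. Matches to the first 2 motifs can share bases at their ends, and the third overlaps neither. A match describes the letters and is not a measured binding site.

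Each library held 5077787 to 36297826 counts, with the monocyte libraries the shallowest at 7801073 counts or fewer. Summed CPM, a gene's counts scaled to a common library total, of 10 microglia markers ran from 34920 to 38390 in normal MG, 15720 to 23880 in GEMM MG and 3382 to 11240 in GL261 MG, and were at or below 5541 in the other groups. The 8 monocyte markers summed to 6408 to 7739 CPM in monocytes and to at most 1175 elsewhere. GL261 MG 80769 stood apart from the other GL261 MG libraries, with the lowest microglia sum (3382), the highest sum of 6 oligodendrocyte precursor or glioma markers (1153, against 533.3 and 712.8) and the highest sum of 9 proliferation markers (1664, against 1119 and 1057). GEMM BMDM 68702 held 1676 CPM of 7 neutrophil markers, and the other GEMM BMDM libraries 88.44 and 10.22. Monocytes 64820 and 64821 had 13.5% and 14.3% of their counts on the ribosomal RNA gene Rn45s. Monocyte neutrophil sums ran from 1314 to 23550 CPM. Xist averaged 352.5 CPM in monocytes and below 1 CPM in every other group, while Ddx3y averaged 0.887 CPM in monocytes and 83.0 to 189 CPM elsewhere. By these 2 genes the monocyte libraries are from female and the others from male animals, so in comparisons with monocytes sex and cell type cannot be told apart.

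As a set, ribosomal protein mRNA was scarcest in normal MG and most abundant in blood monocytes, with the tumour cells of both lineages between them. The 81 members took 0.564%, 0.432% and 0.520% of counts in the normal MG libraries (mean 0.505% ± 0.067, SD, n = 3). In GEMM MG they took 0.993%, 1.20% and 1.02% (1.07% ± 0.11, n = 3), and in GL261 MG 1.52%, 1.79% and 2.33% (1.88% ± 0.41, n = 3). Every tumour MG library lay above every normal MG library, and GL261 MG 80769, the library with the fewest microglia markers, was the highest of them. Monocytes took 1.93%, 2.64%, 2.41%, 2.42% and 2.36% (2.35% ± 0.26, n = 5). GEMM BMDM took 0.821%, 1.34% and 1.39% (1.19% ± 0.32, n = 3), and GL261 BMDM 1.33%, 1.33% and 1.30% (1.32% ± 0.02, n = 3). All 6 BMDM libraries lay below all 5 monocyte libraries. In the order of the means, GEMM MG, GEMM BMDM and GL261 BMDM were neighbours whose libraries overlapped, apart from GEMM MG and GL261 BMDM, and GL261 MG overlapped with monocytes. In bulk libraries of sorted cells, fewer cells of a type and less RNA per cell cannot be told apart.

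**Figure D1:**
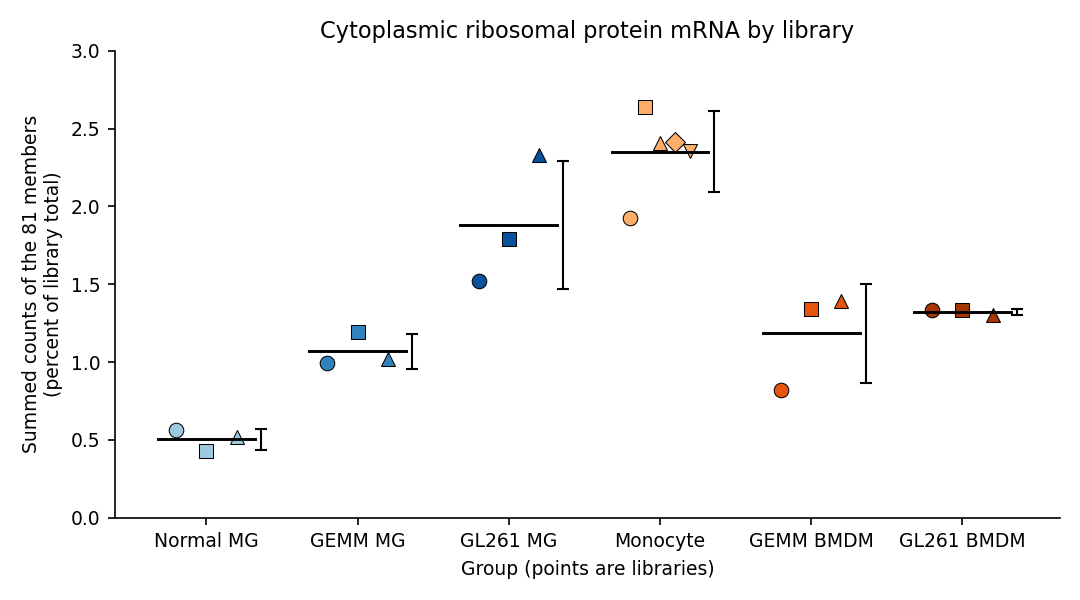
Summed counts of the 81 members as percent of the library total (y axis) for each library (points) in the 6 groups (x axis), with the group mean as a line and its SD as an error bar. Normal MG sit at 0.505% and monocytes at 2.35%, and every tumour library lies between 0.821% and 2.33%.

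Individual members differed in level by orders of magnitude. Per kilobase of transcript, averaged over the 6 group means, Rps29 was highest at 581 CPM per kb, and Rps14 (570), Rpl32 (522) and Rps9 (517) were among the members nearest to it. Of these 4, Rpl32 alone encodes a protein of the large subunit. At the other end, 7 members stayed below 10 CPM in every library: Rpl26, Rpl10l, Rpl3l, Rpl39l, Rpl30, Rpl34 and Rps27. Rpl3l, Rpl10l and Rpl39l are paralogs known for expression in muscle or testis, and their parent genes Rpl3, Rpl10 and Rpl39 were all abundant (Rpl3 152 to 878 CPM across libraries). Rpl26, Rpl30, Rpl34 and Rps27 encode core proteins of the ribosome, so their values need a caution. Rpl26 had no count in any library, Rpl30 reached at most 2.29 CPM, Rpl34 4.30 CPM and Rps27 4.28 CPM. The reference annotation holds 4, 10, 5 and 2 near-identical copies of these genes. A copy has at least 97% identity over at least 80% of the shorter transcript and at least 150 bases. The sources used here do not say how reads matching several places were counted. Some members with more copies had many counts, among them Rpl7a (18 copies, 142 CPM averaged over the group means) and Rps12 (16 copies, 106 CPM). Why these genes had so few counts was not tested. In all, 69 members have a near-identical copy, so the level of any one of them is uncertain. Rpl26 and Rpl10l did not pass the filter on low counts, and the other 79 members were tested.

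In GEMM tumours, MG had more ribosomal protein mRNA than normal MG, by 2.55-fold at the median member, and the rise ran through both subunits. Of 79 members, 75 rose, 1 fell (Rps27) and 3 did not pass the test (Rpl30, Rpl39l and Rpl3l), where 23% of all 15363 genes tested were called higher and 20.9% lower (edgeR quasi-likelihood test, adjusted p under 0.05). The median log2 fold change of the members was 1.35, against -0.02 over all genes. Of the 32 small-subunit members 31 rose (median 1.41), and of the 47 members of the large subunit and its stalk 44 (median 1.28). In plain CPM, 75 members were higher in every GEMM MG library than in any normal MG library, and 26.4% of all genes were. The members furthest up were Rpl38, Rps27l and Rpl12, and Rpl10, a large-subunit protein at the tRNA corridor, moved least among the abundant ones.

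In GL261 tumours, MG stood further from normal MG. Here 77 members rose, none fell and 2 did not pass the test (Rpl39l and Rps27), where 30.6% of genes were called higher and 27.2% lower. The median was 1.76 (3.39-fold), against 0.01 over all genes, and 77 members, as against 41.4% of genes, were higher in every GL261 MG library. Without library 80769, 75 members were called and the median was 1.54, where 4175 of all 15965 genes were called higher. Both tumour models are set against the same 3 normal MG libraries, so their results are not independent. Rpl38, a protein of the large subunit, had 15.7, 12.1 and 16.3 CPM in normal MG, 48.5, 65.9 and 43.7 CPM in GEMM MG and 104, 118 and 185 CPM in GL261 MG. No library of one group overlapped with another, and 80769 was highest. Its log2 fold changes were 1.97 ± 0.20 (SE, adjusted p = 9.11e-07) in GEMM MG and 2.88 ± 0.21 (adjusted p = 9.59e-09) in GL261 MG.

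**Figure D2:**
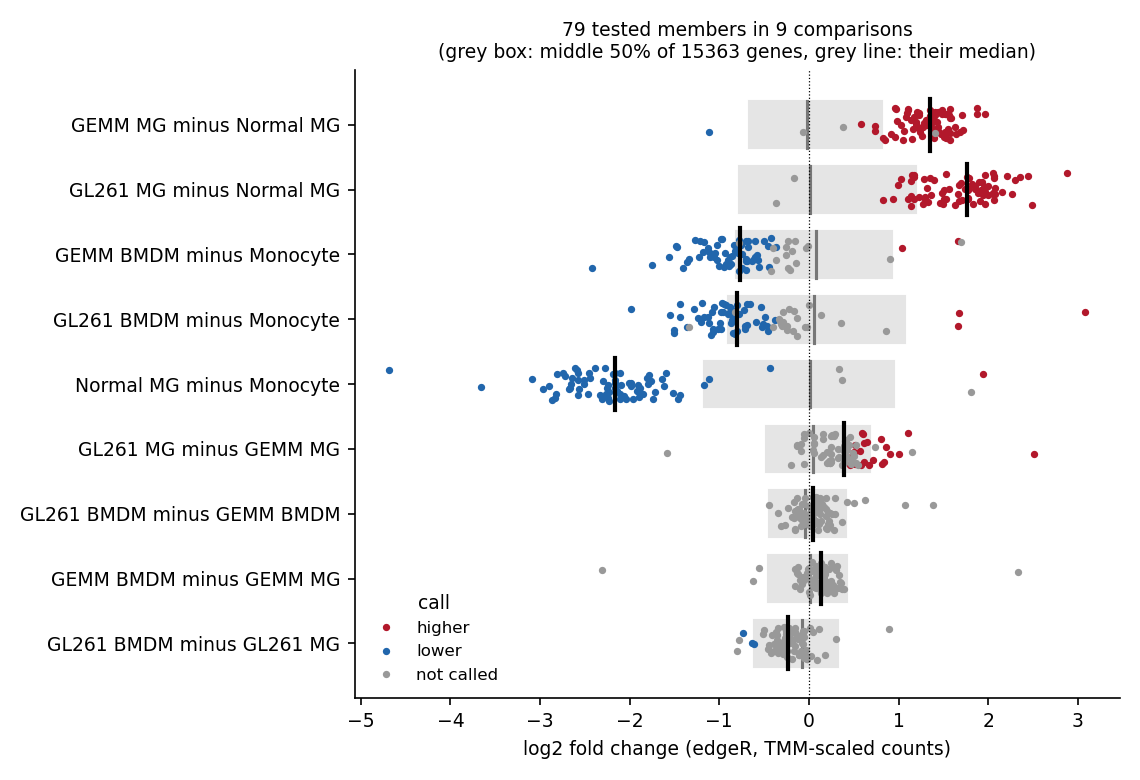
Log2 fold change (x axis) of the 79 tested members (points, coloured by call at adjusted p under 0.05; black line, their median) in 9 comparisons (y axis), over the middle 50% (box) and the median (line) of all 15363 genes in grey. The members' medians are at 1.35 and 1.76 in tumour MG against normal MG, right of the grey box. They are at -0.77, -0.80 and -2.16 in the 3 comparisons with monocytes. Those of GEMM and GL261 BMDM lie inside the grey box, whose lower ends are at -0.81 and -0.90.

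Among members with known roles outside bulk ribosome structure, Rplp0, the stalk protein that binds elongation factors, had 270, 198 and 217 CPM in normal MG and 361, 465 and 410 CPM in GEMM MG. It reached 628, 756 and 1058 CPM in GL261 MG, so the groups did not overlap. Its log2 fold change was 0.98 ± 0.21 (adjusted p = 0.000944) in GEMM MG and 1.51 ± 0.21 (adjusted p = 8.77e-06) in GL261 MG. Its partners Rplp1 (1.31 and 1.36) and Rplp2 (1.44 and 1.89) also rose in both. Rpl5 and Rpl11, which together with 5S rRNA bind Mdm2 when ribosome assembly fails, rose by 1.24 and 1.19 in GEMM MG and by 1.48 and 0.99 in GL261 MG. Rps6, the substrate of S6 kinase, rose by 1.05 and 1.30. Of the genes mutated in Diamond-Blackfan anaemia, these rose in both models: Rps19 by 1.52 and 1.95, Rps24 by 1.51 and 1.98, Rpl35a by 1.38 and 1.32, and Rps26 by 1.63 and 2.49. Rps26 had 32.7, 24.5 and 29.7 CPM in normal MG, 77.3, 96.5 and 72.6 CPM in GEMM MG and 160, 186 and 263 CPM in GL261 MG. Rpl10 had 223, 166 and 188 CPM in normal MG and 244, 294 and 248 CPM in GEMM MG, where it rose by only 0.58 ± 0.20 (adjusted p = 0.0267). That call was lost with library totals in place of TMM (0.45), without normal MG 67573 (0.52), without normal MG 67574 (0.56) and without GEMM MG BB30101 (0.54). The fall of Rps27 in GEMM MG (-1.11 ± 0.43, adjusted p = 0.0423) rests on levels of 0.694 to 4.28 CPM and was lost in 8 alternative fits, among them those without GEMM MG 68702 (-0.80) and without normal MG 67572 (-0.75).

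**Figure D3:**
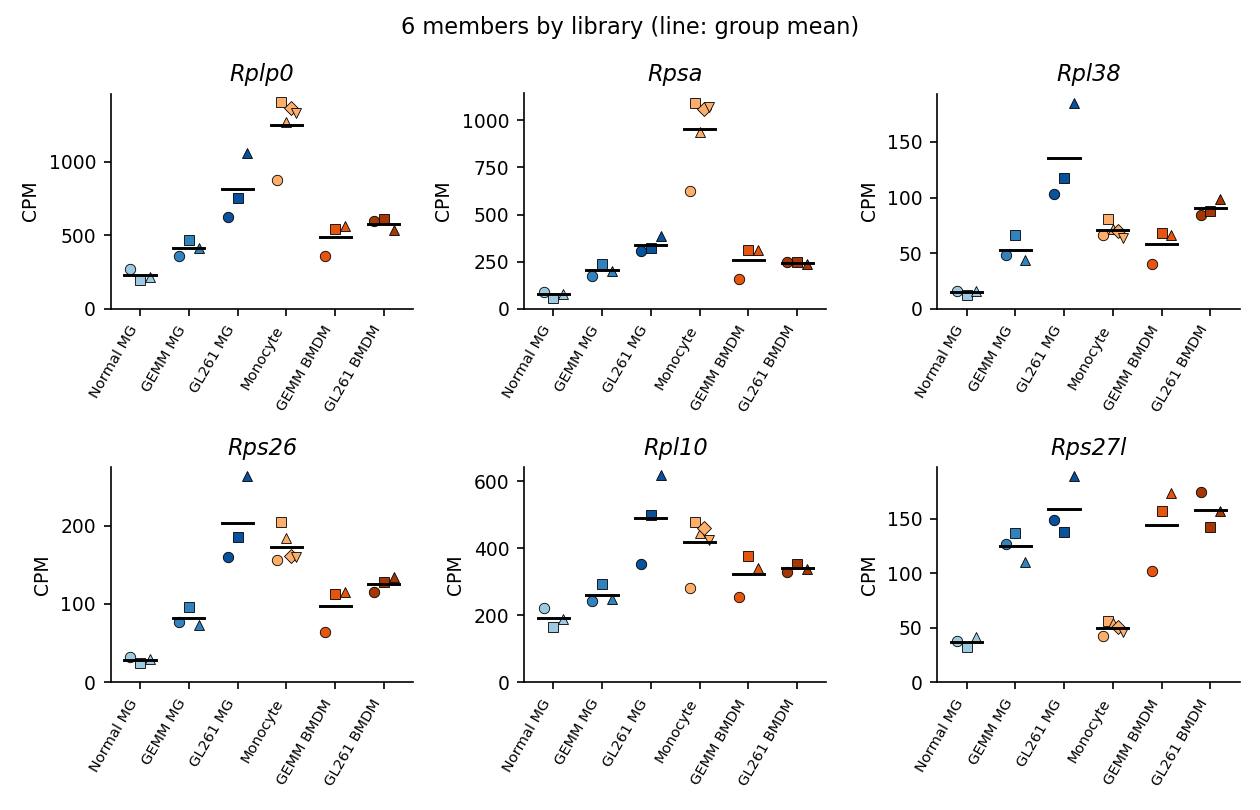
CPM (y axis) of 6 members in each library (points) of the 6 groups (x axis), with the group mean as a line. Rpl38 and Rps26 run from normal MG to GL261 MG without overlap, Rpsa and Rplp0 peak in monocytes, and Rps27l is low in normal MG and monocytes (31.9 to 55.9 CPM) and high in all 12 tumour libraries (102 to 189 CPM).

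Other measures moved with the same groups. The 9 proliferation markers, all in the table and none at 0 in any group, summed to 124.6 to 140.9 CPM in normal MG, 649.9 to 732.1 in GEMM MG and 1057 to 1664 in GL261 MG. The 6 oligodendrocyte precursor or glioma markers summed to 3.554 to 12.98, 138.6 to 225.7 and 533.3 to 1153 CPM in the same groups, with none at 0. The 7 dissociation stress genes went the other way, at 21180 to 24900 CPM in normal MG, 5169 to 7510 in GEMM MG and 4333 to 8015 in GL261 MG. Short transcripts as a class were also higher in tumour MG: the 1084 other genes with transcripts under 1 kb had a median log2 fold change of 0.50 in GEMM MG and 0.65 in GL261 MG, and the transcripts of the members have a median of 775 bases. The part of each of these in the members' rise was not tested.

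Against blood monocytes, the direction turned. In GEMM BMDM 61 of 79 members fell, 2 rose (Rps27l and Rpl34) and 16 did not pass the test, where 25.7% of genes were called lower and 31.6% higher. The median was -0.77 (1.71-fold lower) against 0.08 over all genes. In GL261 BMDM 54 fell, 3 rose (Rps27l, Rpl34 and Rpl30) and 22 did not pass, where 28.9% of genes were called lower and 34.1% higher. The median there was -0.80 (1.75-fold lower) against 0.06. In plain CPM, 59 members in GEMM BMDM and 55 in GL261 BMDM were lower in every BMDM library than in any monocyte library, as were 26% and 24.8% of all genes. The monocyte libraries are shared between the 2 comparisons. Without GEMM BMDM 68702 the count was 55 (median -0.62), and without both monocyte libraries rich in Rn45s the counts were 57 and 49. Over all genes 3717 of 15948 were called lower without 68702. Without those monocyte libraries 3527 and 3954 of 15036 were.

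Markers of other cells moved with these 2 comparisons, and their part in the members' fall was not tested. The 7 neutrophil markers summed to 1314 to 23550 CPM in monocytes, 10.22 to 1676 in GEMM BMDM and 21.06 to 37.62 in GL261 BMDM, with Camp at 0 in both BMDM groups. The 5 platelet markers summed to 799.8 to 1926 CPM in monocytes and 69.69 to 150.6 in BMDM, and the 4 B cell markers to 74.64 to 669 and 8.276 to 33.26 CPM, none at 0. The 9 proliferation markers were lower in monocytes (99.73 to 283.4 CPM) than in BMDM (339.5 to 933.6), as were the 7 dissociation stress genes (1324 to 2289 against 3736 to 6407 CPM). The 1084 other genes with transcripts under 1 kb went the other way from the members. Their median log2 fold change was 0.32 in GEMM BMDM and 0.40 in GL261 BMDM.

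Rpsa, a small-subunit protein also known as the laminin receptor, fell furthest among the abundant members. It had 623, 1091, 936, 1060 and 1070 CPM in monocytes, 160, 311 and 312 CPM in GEMM BMDM and 247, 249 and 237 CPM in GL261 BMDM. Every BMDM library was below the lowest monocyte library. Its log2 fold change was -1.75 ± 0.22 (adjusted p = 3.03e-06) in GEMM BMDM and -1.98 ± 0.22 (adjusted p = 6.69e-07) in GL261 BMDM. Among others that fell were Rps14 (-1.56 and -1.20), Rps9 (-1.48 and -1.55), Rpl9 (-1.47 and -1.51) and Rpl24 (-1.34 and -1.51). Rplp0 fell by 1.23 and 1.12 and Rplp2 by 0.58 and 0.49, while Rplp1, with 191 to 245 CPM in monocytes and 131 to 197 CPM in BMDM, did not pass the test in either (-0.26, adjusted p = 0.0954, and -0.18, adjusted p = 0.237). Rps6 fell by 0.87 and 0.98 and Rpl11 by 0.68 and 0.86, and Rpl5 did not pass (-0.26 and -0.22). Rpl38 (-0.14 and 0.36), Rpl12 (-0.23 and -0.04), Rpl39 (-0.01 and -0.13) and Rps29 (-0.03 and -0.02) were also among those that did not pass in either model.

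The changes of MG and of BMDM were therefore set against each other in one contrast, chosen after the data were seen. The fold change over normal MG exceeded that over monocytes for 73 members in GEMM tumours (median difference 2.11, with 16.8% of genes called higher and 22.1% lower) and for 74 in GL261 tumours (2.40, with 21.2% called higher and 23.1% lower), and fell short of it for none. This contrast contains the difference between normal MG and monocytes themselves, whose median was -2.16. Within a tumour, BMDM over MG had medians of only 0.13 (GEMM) and -0.23 (GL261). The contrast therefore largely restates the difference between normal MG and monocytes.

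Rps27l, a paralog of Rps27 known as a p53 target, was the only abundant member that rose in tumour cells of both lineages. It had 38.1, 31.9 and 41.3 CPM in normal MG and 42.4, 55.9, 53.9, 51.0 and 46.5 CPM in monocytes. It had 127, 136 and 110 CPM in GEMM MG, 149, 138 and 189 in GL261 MG, 102, 157 and 174 in GEMM BMDM and 174, 142 and 157 in GL261 BMDM. No tumour library overlapped with a library of normal MG or monocytes. The log2 fold changes were 1.88 ± 0.16 (adjusted p = 1.52e-07) and 1.79 ± 0.16 (adjusted p = 1.17e-07) in MG of GEMM and GL261 tumours, and 1.66 ± 0.14 in BMDM of both (adjusted p = 2.73e-08 and 2.20e-08). Rpl30 and Rpl34, the other genes called higher in BMDM, stayed at or below 3.24 CPM there and are among the 4 core genes with near-identical copies and hardly any counts. The call of Rpl34 in GEMM BMDM (1.04 ± 0.41, adjusted p = 0.0365) was lost in 9 alternative fits, with values of 0.81 to 1.04.

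Normal MG and monocytes, the comparison groups of the 2 lineages, stood furthest apart. In normal MG 75 members were lower than in monocytes, 1 was higher (Rpl30) and 3 did not pass the test, where 30.4% of genes were called lower and 32.4% higher. The median was -2.16 (4.47-fold lower) against 0.01 over all genes, and 75 members were lower in every normal MG library, as were 27.8% of genes. Rpsa was 12.6-fold lower (log2 -3.66 ± 0.25, adjusted p = 6.16e-10), Rps7 8.49-fold lower and Rps14 7.47-fold lower, while Rpl10 was 2.17-fold lower and Rps27l 1.34-fold lower. The call of Rps27l was lost without normal MG 67573 (-0.32). The scarce paralog Rpl3l was at 0.0379 to 0.107 CPM in normal MG and 0.717 to 3.08 CPM in monocytes (log2 -4.68 ± 0.84, adjusted p = 0.000103). Neutrophil markers (1314 to 23550 CPM in monocytes, at most 0.559 in normal MG) and platelet markers (799.8 to 1926 against 33.17 to 43.47 CPM) moved with this comparison, and their part in it was not tested.

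Within a tumour, few or none of these genes were called between the 2 lineages. In GEMM tumours no member was called between BMDM and MG (median log2 fold change 0.13, BMDM over MG), where 12.7% of genes were called higher and 8.1% lower. With edgeR 3 members had an unadjusted p under 0.05, and DESeq2 and limma-voom each called 1 higher. In GL261 tumours 3 members were lower in BMDM and none higher (median -0.23, against -0.08 over all genes), where 6.81% of genes were called lower and 10.7% higher. These were the small-subunit proteins Rps12 (-0.74 ± 0.21, adjusted p = 0.0222) and Rps20 (-0.61 ± 0.18, adjusted p = 0.0279) and the large-subunit protein Rpl37 (-0.63 ± 0.18, adjusted p = 0.0228). Rps12 had 141, 203 and 228 CPM in GL261 MG and 84.8, 96.9 and 95.2 CPM in GL261 BMDM, without overlap. None of the 3 was called without GL261 MG 80769, GL261 BMDM 80766 or GL261 BMDM 80767. The size of this difference depended on scaling. The composition factors of edgeR (TMM) ran from 1.17 to 1.28 for GL261 MG libraries, with BMDM from the same tumours at 0.974 to 1.03. In plain CPM 63 members were lower in every GL261 BMDM library, as were 32.1% of genes. With library totals in place of TMM, an alternative chosen after the data were seen, 29 members were called lower. Over all genes 3033 of 15363 were then called lower, and their median moved to -0.38, with the members at -0.54. With only the 4 tumour groups in the fit, 1 member was called lower (Rps12), and 3 with the tumour as a block in that fit. No member was called in the test of whether the lineage difference itself differed between tumour models (median -0.34, with 0.605% of genes called higher and 1.02% lower), where 8 had an unadjusted p under 0.05 in edgeR and DESeq2 and limma-voom also called none.

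Between tumour models, ribosomal protein mRNA took a larger share of counts in GL261 MG than in GEMM MG, while the number of members called depended on the fit. Of 79 members 22 were higher and none lower, where 18.8% of genes were called higher and 15.5% lower, and the median was 0.39 against 0.04 over all genes. The members furthest up were Rpl3l, Rpl37 and Rps20. Rpl3l (2.51 ± 0.86) had 0.252, 0.166 and 1.34 CPM in GL261 MG, so its rise rests on library 80769, without which it was not called (1.10). Its call was lost in 3 further alternatives, without GEMM MG BB30101 (2.51), without GEMM MG BB30105 (1.87) and with no filter (2.46). Rpl37 had 104, 132 and 113 CPM in GEMM MG and 245, 314 and 471 CPM in GL261 MG (1.11 ± 0.18, adjusted p = 0.000214). Rps20 had 78.1, 80.1 and 73.6 CPM in GEMM MG and 163, 200 and 272 CPM in GL261 MG (1.00 ± 0.18, adjusted p = 0.000525). In plain CPM, 72 members were higher in every GL261 MG library, as were 43.9% of genes. With library totals in place of TMM, 67 members and 5720 of all 15363 genes were called higher. The median of all genes moved to 0.48, with the members at 0.84. Without GL261 MG 80769, 10 were called higher, and without GEMM MG 68702, BB30101 or BB30105 there were 9, 14 and 7. Over all genes 2117 of 15965, 1811 of 15953, 2242 of 15937 and 1924 of 15961 were called higher in these fits. The share of members called was thus near that of all genes, or below it without BB30105. The members' medians were 0.26, 0.28, 0.37 and 0.23, against 0.01, -0.05, 0.0 and -0.04 over all genes. Between BMDM of the 2 models no member was called (median 0.04, with 10.2% of genes called higher and 9.46% lower), 6 had an unadjusted p under 0.05 in edgeR, and DESeq2 called 1 higher and limma-voom none. The 2 lineages were not shown to differ in this respect, since the test of the lineage difference between models called no member.

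Setting the size of each library to the summed counts of the members, in the same edgeR test, shows which of them changed relative to the rest. In GEMM MG against normal MG 14 members then gained and 5 lost share, and in GL261 MG 27 gained and 13 lost. Of all 15363 genes, 1124 were then called higher and 9497 lower in GEMM MG, and 1818 and 10101 in GL261 MG. With so many genes called, the adjusted threshold admits larger unadjusted p than in the main fit. Rpl38 gained most in both (0.75 and 1.29), together with Rpl12 (0.68 and 0.69) and, in GL261 MG, Rps26 (0.90) and Rps20 (0.77). Rpl10 (-0.63 and -0.56), Rps9 (-0.46 and -0.63) and Rpl3 (-0.37 and -0.43) lost share in both. In BMDM against monocytes 22 members gained and 11 lost in GEMM tumours, and 29 gained and 12 lost in GL261 tumours. Of all 15363 genes, 8517 were then called higher and 1292 lower in GEMM BMDM, and 8221 and 1814 in GL261 BMDM. Rps27l gained 2.52 and 2.49 and Rpsa lost 0.90 and 1.13 on the log2 scale, while Rps9, Rps7, Rpl17, Rpl9 and Rpl3 lost share in both. Between normal MG and monocytes, 22 members had a higher and 23 a lower share in normal MG. Of all genes 11346 were higher and 1203 lower. Rpl10 was at 1.11, Rps29 at 1.03 and Rpsa at -1.44. The small-subunit counts per large-subunit count were 0.680 ± 0.007 in normal MG (n = 3), 0.749 ± 0.006 in GEMM MG, 0.752 ± 0.013 in GL261 MG, 0.775 ± 0.017 and 0.775 ± 0.008 in GEMM and GL261 BMDM, and 0.834 ± 0.012 in monocytes (n = 5). Normal MG libraries (0.673 to 0.687) lay below, and monocyte libraries (0.822 to 0.848) above, all 12 tumour libraries (0.741 to 0.788).

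**Figure D4:**
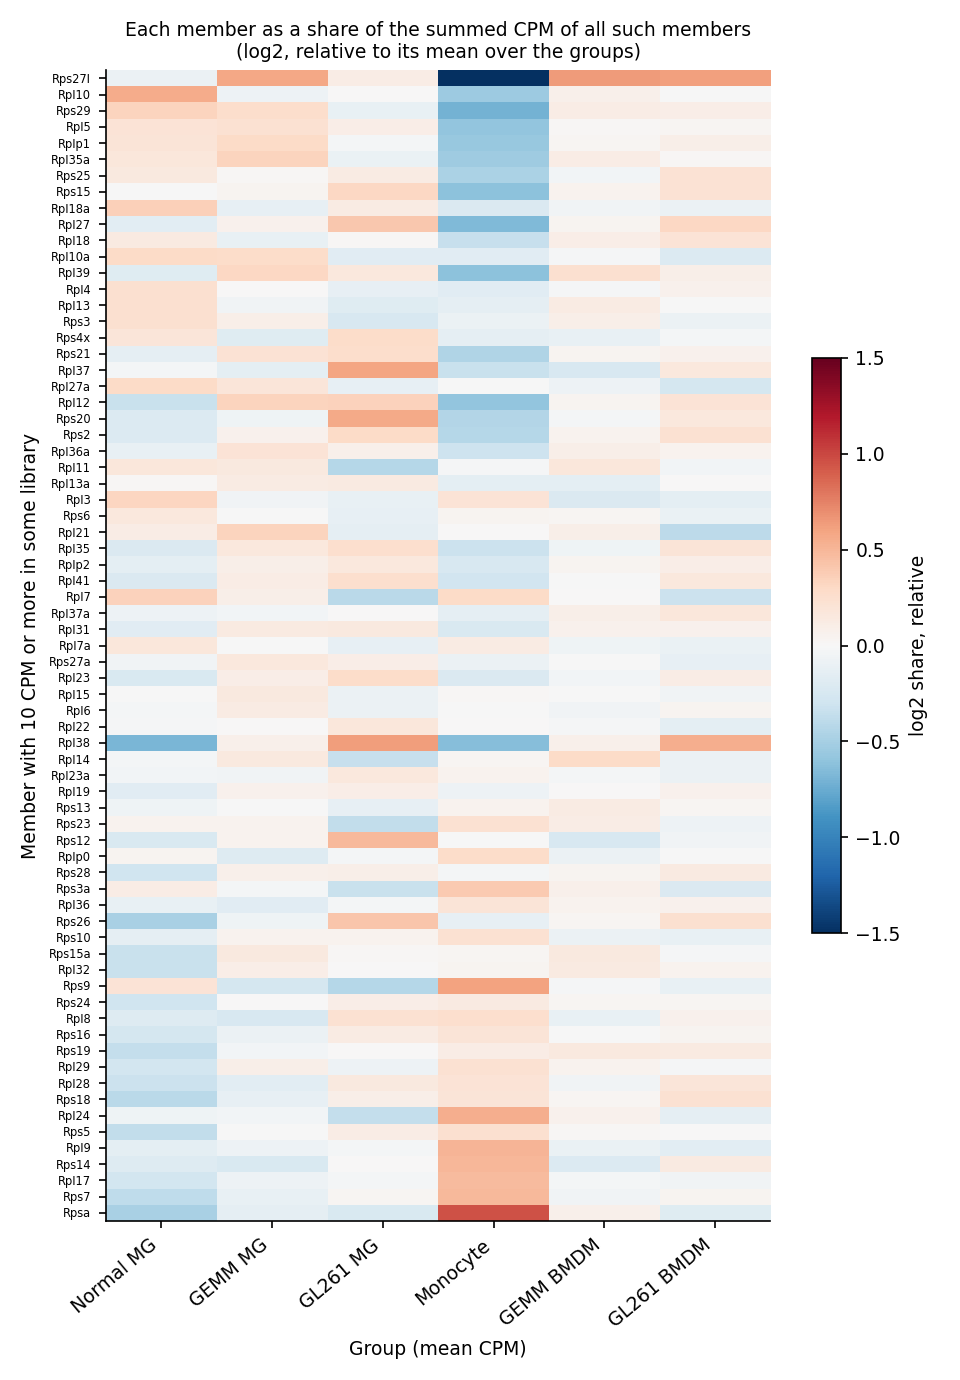
Of the 74 members that reach 10 CPM in some library, 71 are drawn (y axis), each as a share of the 74 members' summed mean CPM in each group (x axis), as log2 relative to its mean over the groups (colour, saturating at the ends of the bar), sorted by the difference between monocytes and normal MG. Rps27l at the top is low in monocytes, Rpsa at the bottom is high there, and Rpl38 is low in normal MG and monocytes.

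Other genes of the translation machinery did not all go the way of the ribosomal proteins. The 24 elongation factors and other TOP mRNAs did: 21 rose and 1 fell in GEMM MG (median 0.87), and 22 rose and 1 fell in GL261 MG (1.26), while 16 and 14 fell and none rose in GEMM and GL261 BMDM against monocytes (-0.68 and -0.74). Fau, which encodes a ribosomal protein fused to a ubiquitin-like domain, belongs to that list. It fell from 400 ± 29 CPM in monocytes (n = 5) to 126 ± 27 and 134 ± 8 CPM in GEMM and GL261 BMDM (-1.53 and -1.58). Gnb2l1, the Rack1 scaffold of the small subunit, rose by 1.46 and 2.24 in MG and fell by 1.08 and 0.83 in BMDM. Of the 9 related genes outside the naming rule, Fau and Gnb2l1 included, 4 rose in GEMM MG and 5 in GL261 MG and none fell. Of all genes 23% and 30.6% rose there. In GEMM BMDM 3 of the 9 rose and 3 fell, near the 31.6% and 25.7% of all genes. In GL261 BMDM 4 rose and 4 fell, where 34.1% of all genes rose and 28.9% fell. Rpl36al, a close relative of Rpl36a, rose in all 4 comparisons (1.06, 1.22, 0.57 and 0.66). Rpl7l1 (0.36 and 0.52) and Rsl1d1 (1.02 and 1.05) rose in BMDM of both models, and Rpl22l1, a paralog of Rpl22, fell in GL261 BMDM (-0.68).

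The lists above and below are read against the share of all genes called in the same comparison. In MG that share was 23% higher and 20.9% lower in GEMM tumours, and 30.6% and 27.2% in GL261 tumours. In BMDM it was 31.6% and 25.7% in GEMM tumours, and 34.1% and 28.9% in GL261 tumours. Mitochondrial ribosomal proteins, which serve the separate ribosome of the mitochondrion, rose in both lineages. Of 76 genes, 47 rose and none fell in GEMM MG (median 0.55), and 56 rose and 1 fell in GL261 MG (0.62). In GEMM BMDM 54 rose and 2 fell (0.51), and in GL261 BMDM 57 rose and 2 fell (0.58). Mrpl13 went from 7.51 ± 1.35 CPM in monocytes (n = 5) to 42.4 ± 7.1 CPM in GEMM BMDM and 60.1 ± 6.5 CPM in GL261 BMDM (2.64 and 3.00). Of 56 ribosome biogenesis and RNA polymerase I genes, 15 rose and 6 fell in GEMM MG (0.18), where the share that rose was near that of all genes. In GL261 MG 37 rose and 3 fell (0.74), in GEMM BMDM 29 and 6 (0.39) and in GL261 BMDM 37 and 3 (0.65). Gnl3, the nucleolar protein nucleostemin, rose by 2.03 and 2.00 in BMDM, and Nhp2, of the H/ACA particles, rose from 21.4 ± 2.8 CPM in normal MG to 52.5 ± 7.1 in GEMM MG and 151 ± 48 in GL261 MG (n = 3 each). Between tumour models 32 of the 56 were higher and 2 lower in GL261 MG (median 0.61), where 18.8% of all genes were higher and 15.5% lower.

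The initiation factors, some of which (Eif3f and Eif3h for example) are also counted among the TOP mRNAs, were split. Of 36 genes, 19 rose and 3 fell in GEMM MG, and 24 rose and 6 fell in GL261 MG (medians 0.46 and 0.64), whereas 14 rose and 10 fell in GEMM BMDM and 14 and 6 in GL261 BMDM (medians 0.09 and 0.22, against 0.08 and 0.06 over all genes). Eif3f and Eif3h, subunits of the factor that docks on the small subunit, fell in BMDM (Eif3f by 2.14 and 2.40, Eif3h by 1.65 and 1.69), and Eif1a rose (1.27 and 1.35). The snoRNA host genes had 10 of 11 members higher and none lower in GL261 MG than in GEMM MG (median 1.25). Of all genes 18.8% were higher and 15.5% lower there. Against normal MG, 3 rose and 4 fell in GEMM MG (-0.18), and 6 rose and 0 fell in GL261 MG (0.86). Against monocytes, 4 rose and 2 fell in GEMM BMDM (0.04), and 5 rose and 1 fell in GL261 BMDM (0.55). Of the 26 growth regulators, 4 rose and 7 fell in GEMM MG, and 5 rose and 4 fell in GL261 MG, so a smaller share rose than among all genes. Rptor, the mTORC1 scaffold, fell in both (from 211 ± 7 to 61.3 ± 14.2 and 68.4 ± 22.1 CPM, n = 3 each), as did the mTOR inhibitor Deptor (-1.72 and -1.60). Myc, a transcription factor that drives ribosome synthesis, did not follow the order of the ribosomal proteins. It averaged 83.4 ± 3.6 CPM in normal MG, 35.3 ± 9.6 in GEMM MG (-1.12, adjusted p = 0.0051) and 191 ± 74 in GL261 MG (0.87, adjusted p = 0.0164). It was lowest in monocytes, at 7.32 ± 3.08 CPM (n = 5), and higher in GEMM BMDM (34.3 ± 12.5) and GL261 BMDM (91.5 ± 11.5).

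**Figure D5:**
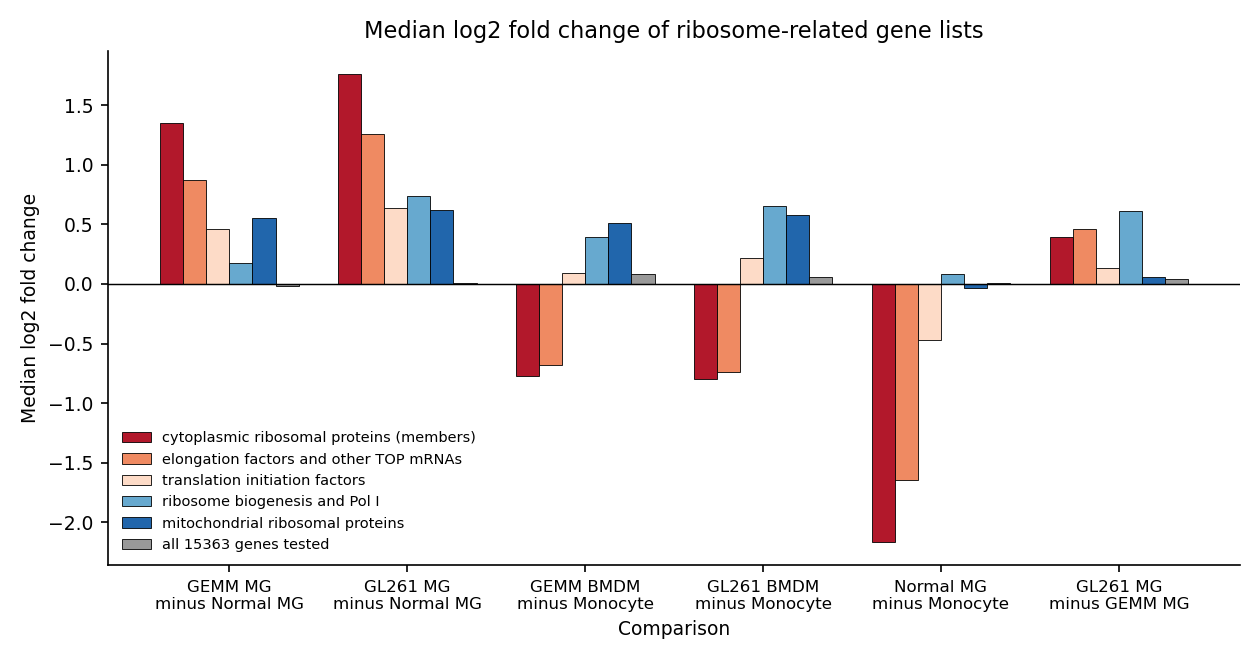
Median log2 fold change (y axis) of the 79 tested members, 4 related gene lists and all 15363 genes (bars) in 6 comparisons (x axis). Members and TOP mRNAs are above zero in tumour MG against normal MG and below zero in BMDM against monocytes, while mitochondrial ribosomal proteins are above zero in all 4 of these.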

How the data were processed

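The authors deposited whole-number read counts per gene symbol for 20 libraries, made with the Smart-Seq kit from sorted cells per the labels' protocols. Tools listed in the submitters' processing notes, without role or order, are STAR 2.5.0e, HTSeq, CASAVA 1.8 and DESeq2, with genome mm10. The sources used here do not state strand or multi-mapping settings. Counts were divided by library totals for CPM. Tests used edgeR 4.0.16 (R 4.3.3): quasi-likelihood with robust dispersion, TMM scaling, 15363 genes after a filter (minimum count 10, minimum total 15), all 6 groups in one fit, Benjamini-Hochberg adjustment over all genes and a threshold of 0.05. On simulated counts for GEMM MG against normal MG (14995 genes, 200 changed), 55% of 2-fold and 91% of 4-fold changes were recovered. Of 152 calls there, 6 were false. For GEMM BMDM against monocytes (15029 genes, 200 changed), 66% and 96% were recovered, and 10 of 172 calls were false. Far more genes were called in the data than were changed here, so the adjusted threshold differs and recovery in the data was not measured. Alternatives used DESeq2 1.42.0 and limma 3.58.1. Transcript length and copies came from GENCODE principal transcripts and blastn 2.17.0.

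MG and BMDM of one number come from one tumour per the series' design text, and their deviations from the group means correlated at 0.32, 0.22 and 0.20 (GEMM) and 0.39, 0.22 and 0.39 (GL261), against 0.08 or less for other pairs. Sample numbers differ between animals or tumours. Whether monocyte libraries came from separate mice is given only by their numbers, so p-values measure the spread between these libraries. Named genes were the 5 highest and 5 lowest per kb, the 3 largest called per direction and the 3 farthest from the members' median in each comparison, the paralogs with their parents, the stalk, 5S particle and anaemia genes, and up to 3 genes per list with the smallest p. The members and lists were chosen with earlier results of these data known. Genes named beyond this rule, such as those that did not pass in BMDM or that changed in share, were chosen after their values were seen. A few genes within the rule or the lists are not reported here by name.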

Additional observations from a re-analysis of the deposited data

Results flagged for a closer look

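In 10 of 76 members tested for an outlying library in a group of 4 or more, monocyte 64817 lay below the other 4 monocyte libraries by more than Dixon's 95% limit, where chance flags about 1 in 20. Its CPM was 282.1 for Rpl10 (others 424.7 to 478.8), 236.9 for Rpl17 (324.6 to 359.4), 185.6 for Rpl23 (287.7 to 317.2) and 453.9 for Rpl7 (601.2 to 657.5). It was 168.3 for Rpl7a (275.7 to 303.5), 878 for Rplp0 (1273 to 1404), 113.8 for Rps12 (174.3 to 194.0) and 133.7 for Rps16 (187.1 to 206.6). It was 219.1 for Rps27a (327.3 to 369.9) and 252.9 for Rps4x (397.5 to 441.7). The members share the library, so these flags are not independent. Without 64817, 65 members were called lower in GEMM BMDM and 57 in GL261 BMDM against monocytes, and 75 in normal MG. Of all 15398 genes, 3827, 4308 and 4621 were called lower in these comparisons.

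The tumour-associated difference of MG (against normal MG) and that of BMDM (against monocytes) differed in a test of the difference itself, chosen after the data were seen. In GEMM tumours 73 members had a higher fold change in MG than in BMDM and none a lower one (median difference 2.11 on the log2 scale), where 16.8% of genes were called higher and 22.1% lower. In GL261 tumours the count was 74 (median 2.40), where 21.2% of genes were called higher and 23.1% lower. The members not called were Rpl30, Rpl34, Rpl39l, Rps27 and Rps27l in both, and Rpl3l in GEMM tumours. The 2 starting groups differ in level, so the difference of the differences largely restates that between normal MG and monocytes (median -2.16). Both models share these controls.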

How the results depend on the processing

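The members' median kept its sign in the comparisons of tumour MG with normal MG (1.22 to 1.41 in GEMM and 1.70 to 2.08 in GL261 tumours) and of GEMM BMDM with monocytes (-1.01 to -0.77) under TMM, TMM without the members, DESeq2 size factors, library totals without Rn45s and library totals. Of 33 alternatives run, no called change of a member named here reversed in those that scale on all genes or library totals. The median turned sign where it was near 0: GL261 against GEMM BMDM (0.04) gave -0.14 without GEMM BMDM 68702, -0.02 without GL261 BMDM 80769 and -0.03 with no filter, and GEMM BMDM against MG (0.13) was at 0.00 without GEMM BMDM BB30101 or GEMM MG BB30105. Of 213 results for single genes and group sums, 23 lost their call in 1 or more alternatives. An alternative leaving out mitochondrial genes was not run because no symbol of that kind was found.

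Setting library size to the members' counts, which by construction removes what they share, brought every median within 0.18 of 0, turned that of GEMM BMDM against MG to -0.02 and of GEMM BMDM against monocytes to 0.08, and turned the sign of 24 of 76 called members in GEMM MG, 30 of 77 in GL261 MG, 30 of 63 in GEMM BMDM and 19 of 57 in GL261 BMDM. It left 14 higher and 5 lower (GEMM MG against normal MG), 27 and 13 (GL261 MG against normal MG), 22 and 11 (GEMM BMDM against monocytes), 29 and 12 (GL261 BMDM against monocytes) and 22 and 23 (normal MG against monocytes). It gave 6 and 8 (GL261 against GEMM MG), 1 and 1 (GL261 against GEMM BMDM), 1 and 1 (GL261 BMDM against MG), and 12 and 15 (GEMM) and 14 and 15 (GL261) for the difference between the MG and BMDM changes. Over all 15363 genes it called 1578 higher and 3188 lower in GL261 against GEMM MG, and 1170 and 965 in GL261 against GEMM BMDM. GL261 BMDM against MG had 1346 and 448. The difference between the MG and BMDM changes had 551 and 10533 (GEMM) and 699 and 10488 (GL261). In the comparisons with normal MG or monocytes this scaling called most of the 15363 genes, so the adjusted threshold was more lenient there. Library totals without Rn45s gave 25 lower in GL261 BMDM against MG, 68 higher in GL261 against GEMM MG, 1 lower in the lineage difference, 1 higher in GEMM BMDM against monocytes and 1 higher in GL261 against GEMM BMDM. Plain library totals, chosen after the data were seen, gave 29, 67, 1, 1 and 1 for the same 5. Over all 15363 genes, library totals without Rn45s called 3074 lower in GL261 BMDM against MG and 5873 higher in GL261 against GEMM MG. Plain library totals called 3033 and 5720 there. Fitting only the groups compared gave 0 lower in GL261 BMDM against MG, 0 lower in GEMM MG against normal MG, 1 higher in GEMM BMDM against monocytes, 11 higher in GL261 against GEMM MG and 0 higher in normal MG against monocytes. Over all genes 2186 of 13668 were called higher in GL261 against GEMM MG in that fit, so the members' share was not above it. DESeq2 gave 1 higher in GEMM BMDM against MG, 5 lower in GL261 BMDM against MG and 1 higher in GL261 against GEMM BMDM. Limma-voom gave 1 higher in GEMM BMDM against MG and 1 lower in GL261 against GEMM MG. The 1 member lower in GEMM MG (Rps27) was not called with DESeq2 size factors, TMM without members or no filter (0 each). DESeq2 size factors, and leaving out members with named pseudogene copies, each left 1 higher in GEMM BMDM against monocytes. Where fewer samples or genes do not explain a change, the cause was not tested.

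Leaving out 1 library gave 7 to 26 higher and 0 to 1 lower (GL261 against GEMM MG), 0 to 6 lower (GL261 BMDM against MG), 0 to 2 higher (GEMM BMDM against MG) and 0 to 2 lower (GL261 against GEMM BMDM). It gave 73 to 75 higher and 0 to 1 lower (GEMM MG against normal MG), 74 to 77 and 0 to 1 (GL261 MG against normal MG), 1 to 2 higher (GEMM BMDM against monocytes), 0 to 1 higher (normal MG against monocytes), and 0 to 1 lower in the difference between the MG and BMDM changes of either model. The replicate block for tumour gave 0 calls for GEMM BMDM against MG, 3 lower for GL261 BMDM against MG and 0 for the lineage difference. The same 4 tumour groups without the block, chosen after the data were seen, gave 0, 1 and 0, and over all genes the lineage difference went from 7 higher and 14 lower to 105 and 192 with the block. Monocyte depth limits the scarce members: Rpl3l, Rpl10l, Rpl30, Rpl34, Rpl39l and Rps27 rest on few counts there.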
